A study of Homo sapiens with 71 samples.

Results

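The mitochondrial ribosomal protein genes are the nuclear genes whose products build the ribosome of the mitochondrion. Their transcripts were followed in HepG2 cells, a human hepatoma line, after an exposure of 48 h. The medium held filtered water, as 75% of its volume, from 1 of 16 Great Lakes tributary sites (BRWI, CRMI, CROH, FRWI, GRMI, GRNY, IHIN, JRMI, LRMN, MAWI, MIWI, MROH, ORNY, RRMI, SRMI and VROH), or purified water (CTRL). There were 4 libraries for each site (3 for MIWI) and 8 for CTRL, 71 in all, each from its own dish. All dishes were seeded from 1 common pool of cells, so p-values measure the spread between dishes of that pool. RNA was read by TempO-Seq, in which pairs of short probes are ligated on their target transcript and sequenced.

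Members were the rows of the count table whose symbol starts with MRPL or MRPS and a digit, without MRPS6 and without pseudogene symbols. That rule took 80 of 31012 rows, 77 protein-coding genes and 3 non-coding neighbours (MRPL20-AS1, MRPL23-AS1 and MRPS30-DT) that had 0 counts in all libraries. Of the 77 genes, 75 had counts and 69 passed the filter on low counts, 45 of the large subunit and 24 of the small subunit. The 8 that were not tested were MRPL22 and MRPL23, with 0 counts in all libraries, MRPL20 (22 counts over all libraries), MRPL34 (24), MRPS36 (96), MRPS24 (158, found in 4 libraries with up to 86 in 1), MRPL55 (214) and MRPL49 (301). MRPS36 carries the family's name but is now described as a part of the alpha-ketoglutarate dehydrogenase complex.

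The mitochondrial ribosome translates the proteins that mitochondrial DNA encodes, all of them core subunits of the respiratory chain and ATP synthase. Its RNAs come from the mitochondrial genome, whereas its proteins are made in the cytosol and imported, so the organelle depends on many nuclear genes for each of its subunits. Some of the proteins have bacterial relatives, and others are found only in mitochondrial ribosomes. Liver cells are rich in mitochondria, and loss of single members, such as MRPL3, MRPS16, MRPS2 or MRPS7, causes inherited disorders of oxidative phosphorylation.

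Levels of members were scaled to CPM, counts per 1000000 counts of the features tested, after library sizes were adjusted by edgeR's TMM scaling factors. For cell type markers, CPM were per 1000000 of all counts of the part of the table held, without TMM factors. In CTRL the 69 tested members averaged between 0.991 and 901 CPM with a median of 46.2 CPM. There were 16 members under 10 CPM, 33 of 10 to 100 CPM and 20 over 100 CPM. The coefficient of variation over the 8 CTRL libraries had a median of 12.3%. Each transcript was read by its own probe, and probes differ in efficiency, so levels are compared between groups for 1 gene and not between genes.

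Site libraries held 2.91 to 9.89 M counts (M for 1000000), except VROH 2 with 8840 counts, and CTRL libraries held 8.18 to 14.5 M. CRMI 1 and SRMI 3 also stood apart from the other libraries of their sites. A level at least 3 log2 units under that of the other libraries of the site was seen for 54 of 69 members in VROH 2, for 7 in CRMI 1 (MRPL42, MRPS31, MRPL52, MRPS9, MRPL30, MRPS27 and MRPL15) and for 1 in SRMI 3 (MRPL42). Over all 6947 features tested the same was seen for 5082 (73.2%) in VROH 2, 832 (11.98%) in CRMI 1 and 130 (1.87%) in SRMI 3. Counts of members called are therefore given with all 71 libraries and without these 3. The liver markers ALB (54918 CPM in CTRL), AFP (37227 CPM) and APOA1 (14510 CPM) were high, and all 10 hepatocyte markers on the list passed the filter. Of 11 markers of other cell types, 8 had 0 to 55 counts over all libraries, among them PTPRC of blood cells with 0, CD3E of T cells with 4 and COL1A1 of fibroblasts with 19. The other 3 passed the filter, CD68 of macrophages at 69.4 CPM in CTRL and the endothelial genes PECAM1 and CDH5 at 1.53 and 1.15 CPM. CDH5 was called lower at LRMN in both fits and CD68 without the 3 libraries, where the hepatocyte genes APOA1, APOB and FGB were called higher at LRMN, and their part in the results at LRMN was not tested.

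The CPM of the tested members were summed in each library after TMM scaling. Members with high values weigh most in this sum, which is no even measure of the family. In CTRL, MRPL4 (901 CPM) and MRPS5 (783 CPM) were part of a mean sum of 6824 CPM. CROH libraries lay below all CTRL libraries, with 6328, 6309, 6028 and 5996 CPM, against a lowest of 6436, a median of 6835 and a highest of 7210 CPM in CTRL. IHIN libraries lay between 7233 and 7406 CPM, and all 4 were above the highest CTRL library. The 3 CRMI libraries other than CRMI 1 had 7489, 7535 and 7619 CPM and also lay above all CTRL libraries, and CRMI 1 had 9174 CPM. The summed level was 489 CPM in VROH 2, and 6115 to 6581 CPM in the other VROH libraries. VROH 2 held only 25 member counts of 8840, so its value rests on few counts and on its TMM factor. As a plain share of all counts, IHIN 2 (42776 of 6.02 M counts) and CRMI 4 (26926 of 3.84 M) lay under CTRL 1 (103494 of 14.5 M). By that share CROH stayed below CTRL, with CROH 1 at 33774 of 5.79 M and CTRL 4 at 57772 of 9.40 M.

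**Figure D1:**
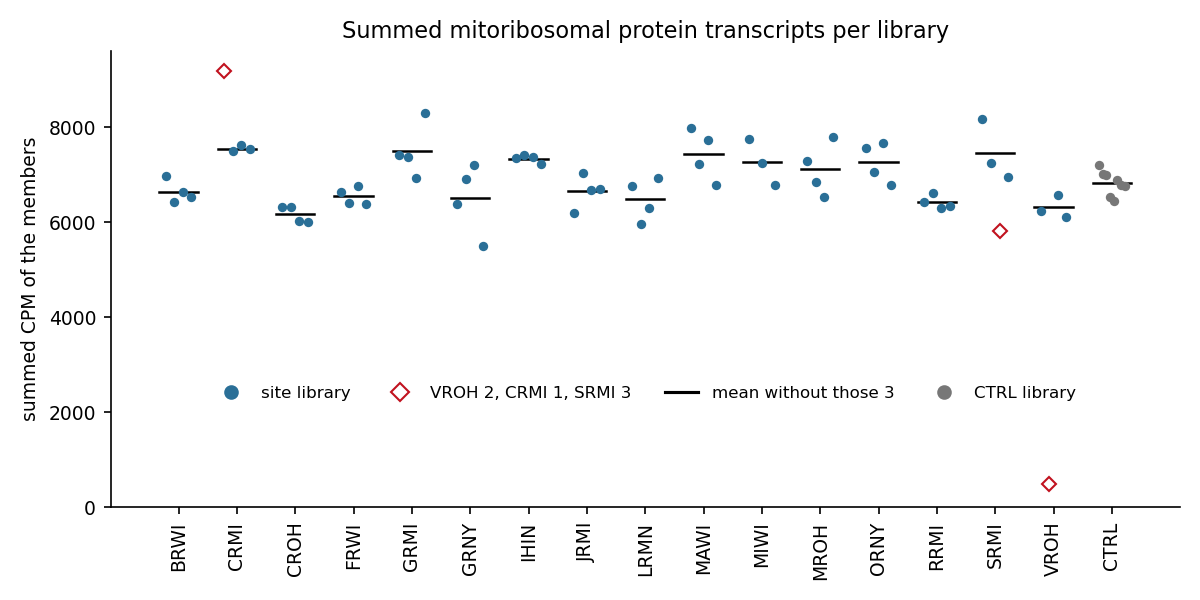
Summed CPM of the 69 tested members (vertical axis) in each library, by group (horizontal axis), with CTRL at the right; bars are group means without VROH 2, CRMI 1 and SRMI 3, which are drawn as open diamonds. With TMM scaling CROH lies under the CTRL range of 6436 to 7210 CPM, IHIN and CRMI lie above it, and most other sites overlap it.

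As a mean of the 16 sites against CTRL, 0 of 69 members were called with all libraries, where 0.0576% of all features were called. A feature was called when its p from edgeR's quasi-likelihood test, adjusted by Benjamini and Hochberg's method over all features tested, was under 0.05. At an unadjusted p under 0.05 there were also 0 members (beside 2.33% of all features), and DESeq2 called 0. Without the 3 libraries 0 members were called (background 0.174%), with 1 at an unadjusted p under 0.05 (beside 4.86%), MRPL36. The median log2 change of the members was -0.01, beside -0.02 for all features, and 30 of 69 members lay above 0, beside 42.3% of all features.

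The largest positive values at the mean of sites were those of MRPL57 (0.18 ± 0.15, SE), MRPL58 (0.16 ± 0.16) and MRPL16 (0.16 ± 0.15). The largest negative values were those of MRPS23 (-0.41 ± 0.27), MRPL53 (-0.18 ± 0.27) and MRPL11 (-0.16 ± 0.21). All 6 lie within 2 SE of 0, and MRPS23, MRPL53 and MRPL11 averaged only 0.993, 1.26 and 0.991 CPM in CTRL. MRPL58 is a peptidyl-tRNA hydrolase that is built into the large subunit, and MRPL11 belongs to the base of the stalk where translation factors bind. Of the members that shape the ribosome's working sites, MRPL12 of the stalk was at 0.07 ± 0.09, MRPL3 near the peptidyl transferase centre at -0.06 ± 0.10 and MRPS12 of the decoding centre at 0.07 ± 0.13. The 3 paralogs of one bacterial protein were at 0.05 ± 0.11 (MRPS18A, which sits in the large subunit), 0.01 ± 0.10 (MRPS18B) and -0.03 ± 0.09 (MRPS18C). MRPS30, also a protein of the large subunit in spite of its name, was at -0.12 ± 0.09, MRPS2 at -0.09 ± 0.22 and MRPS7 at 0.03 ± 0.09.

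Between the 16 sites, 19 of 69 members (27.5%) differed by an F test over all sites, beside a background of 29.8% of all features. Without the 3 libraries 34 members were called, all 19 among them, beside a background of 49.8%. Both shares of members lie near or under the background. The 10 members with the smallest p were MRPL33 (F = 5.45, adjusted p = 1.81e-05), MRPS2 (F = 4.48, adjusted p = 0.000178), MRPL3 (F = 4.11, adjusted p = 0.000442), MRPS33 (F = 4.00), MRPS15 (F = 3.66), MRPS18C (F = 3.66), MRPL18 (F = 3.44), MRPL48 (F = 3.30), MRPL21 (F = 2.98) and MRPL27 (F = 2.92), all by edgeR's quasi-likelihood test. All 10 remained called without the 3 libraries.

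MRPL33 (chromosome 2, 27771717 to 27988087, plus strand, GRCh38), a small protein of the large subunit with a bacterial relative, had the smallest p. With all libraries it averaged 38.5 ± 6.33 CPM at CRMI (SD, n = 4) and 105 ± 17.2 CPM at CROH (n = 4), with 96.3 ± 23.0 CPM at LRMN and 95.7 ± 8.65 CPM at RRMI, beside 72.8 ± 14.6 CPM in CTRL (n = 8). MRPL3 (chromosome 3, 131462212 to 131502983, minus strand) ran the other way over these sites. It averaged 133 ± 18.1 CPM at CROH, 139 ± 20.7 CPM at FRWI and 149 ± 16.3 CPM at LRMN, with 222 ± 43.8 CPM at MAWI and 223 ± 27.2 CPM at ORNY, beside 189 ± 19.0 CPM in CTRL.

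MRPS15 (chromosome 1, 36455718 to 36464437, minus strand), which binds the small ribosomal RNA, followed the order of MRPL3. It averaged 14.2 ± 2.39 CPM at CROH and 14.8 ± 3.04 CPM at LRMN, with 27.2 ± 2.17 CPM at MIWI (n = 3) and 27.5 ± 3.65 CPM at IHIN, beside 21.6 ± 2.94 CPM in CTRL. MRPS2 (chromosome 9, 135499984 to 135504673, plus strand), a small subunit protein with a bacterial relative, followed the order of MRPL33. It averaged 3.92 ± 0.740 CPM at MIWI and 12.98 ± 4.37 CPM at CROH, beside 7.14 ± 2.49 CPM in CTRL. MRPL48 averaged 17.7 ± 3.86 CPM at LRMN and 19.1 ± 3.00 CPM at CROH, with 36.3 ± 3.11 CPM at IHIN, beside 28.1 ± 4.38 CPM in CTRL.

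**Figure D2:**
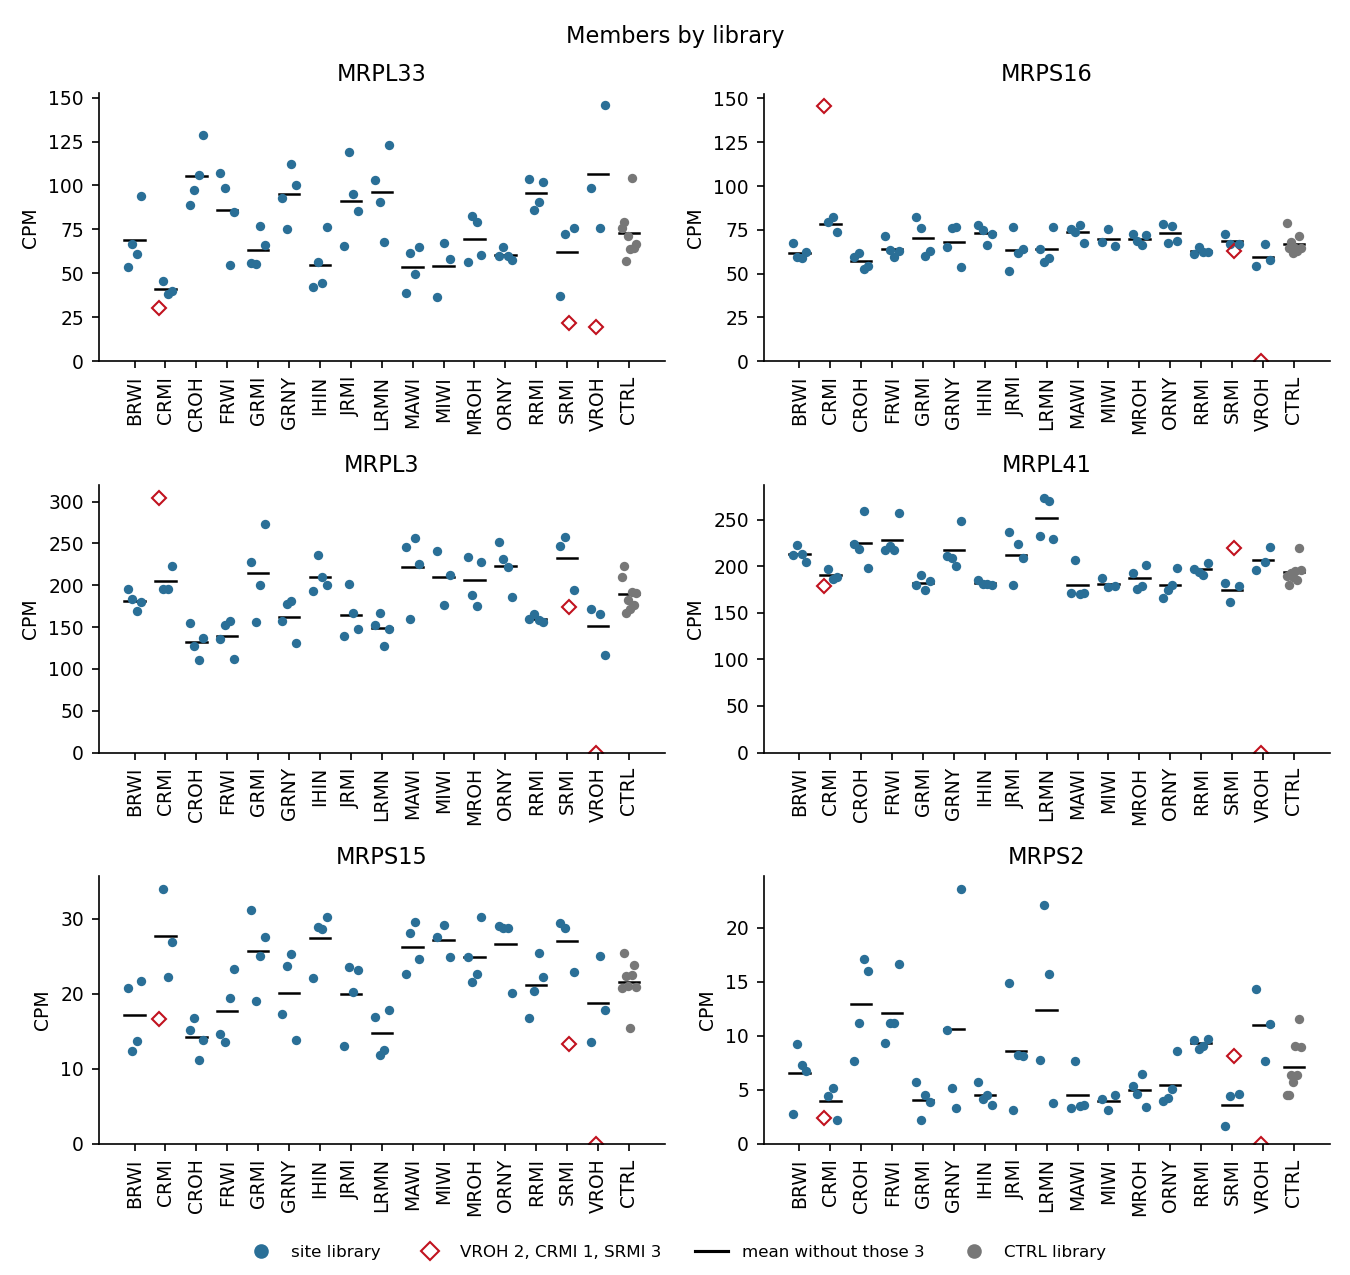
CPM (vertical axis) of 6 members in each library, by group (horizontal axis), with CTRL at the right of each panel; bars are group means without VROH 2, CRMI 1 and SRMI 3, which are drawn as open diamonds. MRPL3 and MRPS15 are low at CROH and LRMN where MRPL33, MRPL41 and MRPS2 are high, and the MRPS16 value at CRMI is set apart by the single library CRMI 1.

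Taken site by site with all libraries, members were called at CRMI and at no other site. MRPL33 had 30.3, 45.7, 38.4 and 39.7 CPM in the CRMI libraries, against a lowest of 57.0, a median of 68.8 and a highest of 104 CPM in CTRL. All 4 CRMI libraries lay below all CTRL libraries, and the log2 change was -0.92 ± 0.23 (SE, edgeR adjusted p = 0.0146). Without the 3 libraries it was -0.82 ± 0.23 (edgeR adjusted p = 0.0188), and the call was lost when CRMI 1 alone was left out (-0.81, edgeR adjusted p = 0.0742).

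MRPS16 (chromosome 10, 73248843 to 73252693, minus strand), a small subunit protein whose loss causes an early disorder of mitochondrial translation, had 146, 79.7, 82.1 and 73.6 CPM at CRMI, against a lowest of 62.0, a median of 64.6 and a highest of 78.9 CPM in CTRL. CRMI 1 stood far above the rest and CRMI 4 overlapped the CTRL range. The log2 change was 0.51 ± 0.13 (SE, edgeR adjusted p = 0.0150) with all libraries, and 0.23 ± 0.10 without the 3 (edgeR adjusted p = 0.151), so this call rests on CRMI 1. These 2 of 69 members stand beside a background of 3.74% of features called at CRMI, and 13 members had an unadjusted p under 0.05, beside 18.4% of all features.

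With the 3 libraries left out 4 members were called at CRMI, beside a background of 8.01%. Besides MRPL33, MRPS34 and MRPS17 were higher and MRPL43 was lower. MRPS34, a protein of the small subunit with no bacterial relative, had 116, 123 and 159 CPM in CRMI 2, 3 and 4, against 88.9 to 101 CPM in CTRL with a median of 98.7, and a log2 change of 0.45 ± 0.13 (SE, edgeR adjusted p = 0.0243). MRPS17 had 58.9, 65.6 and 80.3 CPM, against 44.2 to 55.3 CPM in CTRL with a median of 51.8 (0.42 ± 0.13, edgeR adjusted p = 0.0355). MRPL43 had 107, 108 and 78.9 CPM, against 109 to 138 CPM in CTRL with a median of 122 (-0.33 ± 0.10, edgeR adjusted p = 0.0252). None of CRMI 2, 3 and 4 overlapped CTRL for MRPS34, MRPS17 or MRPL43. CRMI 1, however, lay on the other side of CTRL for MRPS17 (21.1 CPM) and MRPL43 (156 CPM), and at 159 CPM on the same side for MRPS34. With all libraries the log2 changes were 0.14 ± 0.19 for MRPS17, -0.13 ± 0.14 for MRPL43 and 0.51 ± 0.18 for MRPS34, and none of the 3 was called (edgeR adjusted p = 0.786, 0.874 and 0.0804). With CRMI 4 left out as well the count at CRMI was 0, and with CRMI 3 left out it was 1. For such fits, here and below, the share of all features called is not given.

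With all libraries 0 of 69 members were called by edgeR at the other 15 sites. The backgrounds there were 5.01% of features at LRMN, 2.14% at CROH, 1.14% at SRMI, 0.849% at RRMI, 0.360% at MAWI, 0.202% at ORNY, 0.144% at BRWI and at GRNY, 0.130% at JRMI and at VROH, 0.0720% at FRWI, 0.0432% at GRMI, 0.0288% at IHIN, and 0% at MIWI and MROH. At an unadjusted p under 0.05 there were 12 members at CROH and at LRMN (beside 15.9% and 20.1% of all features), 6 at FRWI and VROH (10.7% and 7.73%), 3 at BRWI, GRMI, GRNY and SRMI (6.59%, 6.77%, 14.1% and 13.0%), 2 at ORNY and RRMI (9.72% and 7.41%), 1 at IHIN and MAWI (8.22% and 10.9%), and 0 at JRMI, MIWI and MROH (8.80%, 3.04% and 3.84%). DESeq2 called 2 at CROH, beside 3.83% of the features to which it gave an adjusted p, 3 at LRMN, beside 6.63%, and 0 at the other 13, beside 0.0288% to 2.28%.

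CROH and LRMN held most of the members called without the 3 libraries. At CROH 10 were called, 1 higher and 9 lower, beside a background of 10.3% (4.32% higher and 5.93% lower). At LRMN 9 were called, 3 higher and 6 lower, beside 17.5% (9.34% higher and 8.20% lower). The fits with and without the 3 libraries gave nearly the same log2 changes for these members and differed in the standard errors. With all libraries none of them was called, and the log2 changes given for CROH, LRMN, GRNY, MAWI and FRWI are those without the 3. MRPL41 was higher and MRPL15, MRPL48 and MRPS15 were lower at both sites.

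MRPS15 had 15.2, 16.8, 11.2 and 13.8 CPM at CROH, against a lowest of 15.5, a median of 21.7 and a highest of 25.5 CPM in CTRL. One CROH library overlapped the lowest CTRL library, and the log2 change was -0.61 ± 0.18 (SE, edgeR adjusted p = 0.0210 without the 3 libraries, and 0.0941 with all). At LRMN MRPS15 had 16.9, 11.9, 12.5 and 17.9 CPM, a log2 change of -0.52 ± 0.18 (edgeR adjusted p = 0.0336 without the 3 libraries, and 0.102 with all). MRPL48, a large subunit protein with no bacterial relative, had 21.5, 21.8, 16.1 and 16.8 CPM at CROH and 21.1, 13.8, 14.9 and 20.9 CPM at LRMN, against a lowest of 23.0, a median of 28.2 and a highest of 36.2 CPM in CTRL. All 8 site libraries lay below all CTRL libraries, with log2 changes of -0.57 ± 0.18 at CROH and -0.65 ± 0.18 at LRMN.

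MRPL3 had 154, 127, 111 and 137 CPM at CROH, against a lowest of 167, a median of 186 and a highest of 222 CPM in CTRL. The CROH and CTRL libraries did not overlap, and the log2 change was -0.53 ± 0.13 (SE, edgeR adjusted p = 0.00510 without the 3 libraries, and 0.0948 with all). MRPS30 had 9.55, 11.3, 10.0 and 9.49 CPM at CROH, against 12.3 to 16.8 CPM in CTRL with a median of 14.0, again with no overlap (-0.50 ± 0.14). MRPS28 had 250, 232, 140 and 217 CPM at CROH, against 265 to 363 CPM in CTRL with a median of 295 (-0.55 ± 0.17). The remaining members called lower at CROH were MRPL46 (-0.45 ± 0.12), MRPL15 (-0.44 ± 0.10), MRPL39 (-0.34 ± 0.11) and MRPS18C (-0.32 ± 0.10). Without CROH 3, however, 0 of the 10 members were called, and without CROH 4 the count was 3. The share of all features called in these fits is not given, so these counts do not tell members from other features. The MRPL39 call was lost without any 1 CROH library, and without any 1 of CTRL 1, 2, 3, 6, 7 and 8.

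MRPL41 (chromosome 9, 137551199 to 137552555, plus strand), a large subunit protein with no bacterial relative, was called higher at 3 sites. It had 233, 274, 270 and 229 CPM at LRMN, 224, 219, 259 and 198 CPM at CROH and 218, 222, 218 and 257 CPM at FRWI, against a lowest of 180, a median of 191 and a highest of 220 CPM in CTRL. All LRMN libraries lay above all CTRL libraries, while CROH and FRWI libraries overlapped the single highest CTRL library. The log2 changes were 0.38 ± 0.07 at LRMN (edgeR adjusted p = 3.22e-05), 0.24 ± 0.07 at FRWI (edgeR adjusted p = 0.0339) and 0.20 ± 0.07 at CROH (edgeR adjusted p = 0.0367), all without the 3 libraries. With all libraries they were 0.38 ± 0.14, 0.24 ± 0.14 and 0.22 ± 0.14 (edgeR adjusted p = 0.0916, 0.532 and 0.453).

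MRPL43 and MRPS35 were also higher at LRMN. MRPL43 had 150, 181, 143 and 169 CPM at LRMN, all above the CTRL range of 109 to 138 CPM (0.39 ± 0.08, edgeR adjusted p = 0.000827). MRPS35, a small subunit protein, had 69.0, 96.8, 95.0 and 84.0 CPM at LRMN, against 46.9 to 73.5 CPM in CTRL with a median of 62.1 (0.50 ± 0.13, edgeR adjusted p = 0.00548). Without LRMN 2 the 3 members called at LRMN were these 2 and MRPL41, and the lower calls were lost.

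Of the 6 members lower at LRMN, 5 had their lowest LRMN value in LRMN 2. MRPL42, a large subunit protein, had 72.9, 19.1, 73.9 and 70.7 CPM at LRMN, against a lowest of 75.8, a median of 124 and a highest of 195 CPM in CTRL (-1.13 ± 0.35, edgeR adjusted p = 0.0177). MRPS17 had 39.3, 26.4, 45.3 and 36.9 CPM, against 44.2 to 55.3 CPM in CTRL (-0.46 ± 0.12, edgeR adjusted p = 0.00682). MRPS25 had 85.1, 45.7, 64.9 and 71.02 CPM, against 75.3 to 96.4 CPM in CTRL (-0.40 ± 0.14, edgeR adjusted p = 0.0368). MRPL15 had 52.8, 54.5, 55.6 and 44.5 CPM, against 51.7 to 74.1 CPM in CTRL (-0.29 ± 0.10, edgeR adjusted p = 0.0459). The MRPL15 call at LRMN was lost without any 1 LRMN library, and without any 1 of CTRL 2, 4, 5, 7 and 8.

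**Figure D3:**
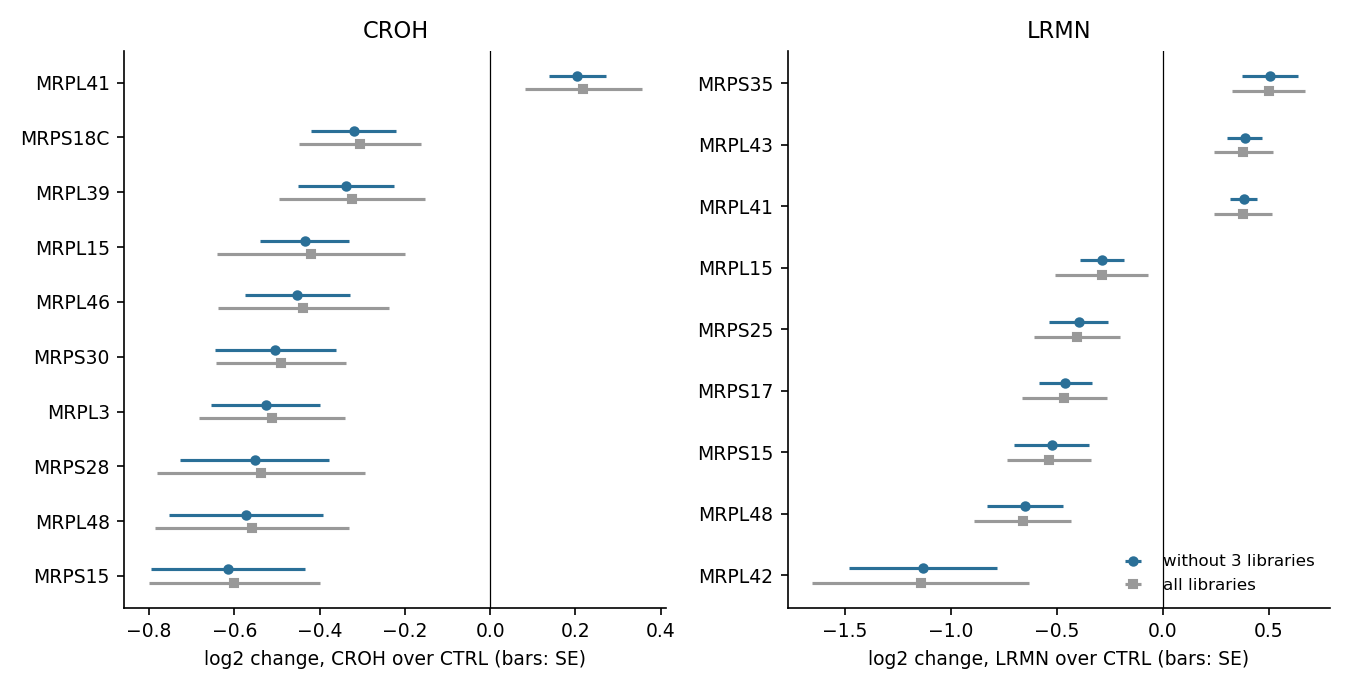
The log2 change over CTRL (horizontal axis, bars are standard errors) of the members called without the 3 libraries at CROH (left) and LRMN (right), by edgeR, with the values from all libraries as squares. MRPL41 is higher at both sites, at 0.20 and 0.38, MRPL15, MRPL48 and MRPS15 are lower at both, and the standard errors are wider with all libraries.

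At 3 further sites 1 or 2 members were called without the 3 libraries. MRPS9, a small subunit protein with a bacterial relative, had 202, 92.0, 141 and 177 CPM at GRNY, against a lowest of 155, a median of 251 and a highest of 281 CPM in CTRL (-0.66 ± 0.15, edgeR adjusted p = 0.00625). MRPL15 was also lower at GRNY (-0.31 ± 0.10, edgeR adjusted p = 0.0463), and both calls were lost without GRNY 2. The MRPL15 call was also lost without GRNY 3, without GRNY 4 or without any 1 of CTRL 2, 4, 5, 6, 7 and 8. MRPS7, which binds the small ribosomal RNA, had 194, 187, 191 and 164 CPM at MAWI, against 141 to 163 CPM in CTRL with a median of 156, with no overlap (0.27 ± 0.06, edgeR adjusted p = 0.00586). MRPS17 had 70.3, 73.6, 61.1 and 63.1 CPM at MAWI, all above CTRL (0.40 ± 0.12, edgeR adjusted p = 0.0353), and both calls at MAWI were lost without MAWI 1. The MRPS17 call at MAWI was also lost without any 1 of MAWI 2, 3 and 4 or of CTRL 1, 4, 6 and 7. MRPL41 alone was called at FRWI, and leaving out any 1 of FRWI 1, 2 or 4 or of 6 CTRL libraries brought that count to 0. The backgrounds were 9.17% at GRNY, 4.71% at MAWI and 2.18% at FRWI.

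By edgeR without the 3 libraries 0 members were called at the other 10 sites. Backgrounds there were 4.09% at ORNY, 2.91% at JRMI, 2.86% at RRMI, 1.27% at SRMI, 1.14% at BRWI, 0.549% at GRMI and at IHIN, 0.130% at VROH, 0.0868% at MROH and 0.0145% at MIWI. At an unadjusted p under 0.05 there were 15 members at IHIN (beside 17.6% of all features), 12 at ORNY (18.9%), 11 at GRMI and SRMI (15.1% and 14.0%), 9 at BRWI (13.0%), 8 at RRMI (13.6%), 7 at JRMI and VROH (17.2% and 10.8%), 5 at MROH (8.76%) and 3 at MIWI (8.04%).

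The members' median stayed close to 0 at all sites, and the median of the small subunit lay farther from 0 than that of the large one at several sites, CROH, LRMN, ORNY, MAWI and CRMI among them. Without the 3 libraries the median log2 change of the 69 members was lowest at CROH (-0.14), FRWI (-0.09) and LRMN (-0.08) and highest at MAWI (0.13), ORNY (0.11) and SRMI (0.09), while the median of all features lay between -0.02 and 0.02. At CROH the 24 small subunit members had a median of -0.23 with 5 above 0, and the 45 large subunit members had a median of -0.06 with 20 above 0. At LRMN the medians were -0.16 (6 of 24 above 0) for the small subunit and -0.06 (21 of 45) for the large subunit. At ORNY they were 0.16 (21 of 24) and 0.10 (29 of 45), at MAWI 0.19 (19 of 24) and 0.09 (30 of 45), and at CRMI 0.23 (17 of 24) and 0.04 (23 of 45). With all libraries the medians at CRMI were 0.10 for the small and 0.01 for the large subunit, and those of the other 4 sites kept their sign. No difference between the subunits was tested.

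Over the site means the members fell into groups that ran with and against each other. Each member's 16 site means of log2 CPM, without the 3 libraries, were correlated with the mean of the other members as a description over 16 points that come from 1 pool of cells. The correlation was over 0.5 for 35 of 69 members (50.7%), beside 34.2% of other features, and its median was 0.54, beside 0.09 for other features. The members most like the rest of the family were MRPL15 (r = 0.92), MRPL3 (0.88) and MRPS18A (0.87). A further 13 members (18.8%) had a correlation under -0.5, beside 27.9% of other features, a smaller share. They were led by MRPL41 (-0.87), MRPL14 (-0.87), MRPL21 (-0.84), MRPL43 (-0.84), MRPS2 (-0.82) and MRPS35 (-0.81). The 35 held 19 members of the large and 16 of the small subunit, and the 13 held 11 of the large and 2 of the small.

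**Figure D4:**
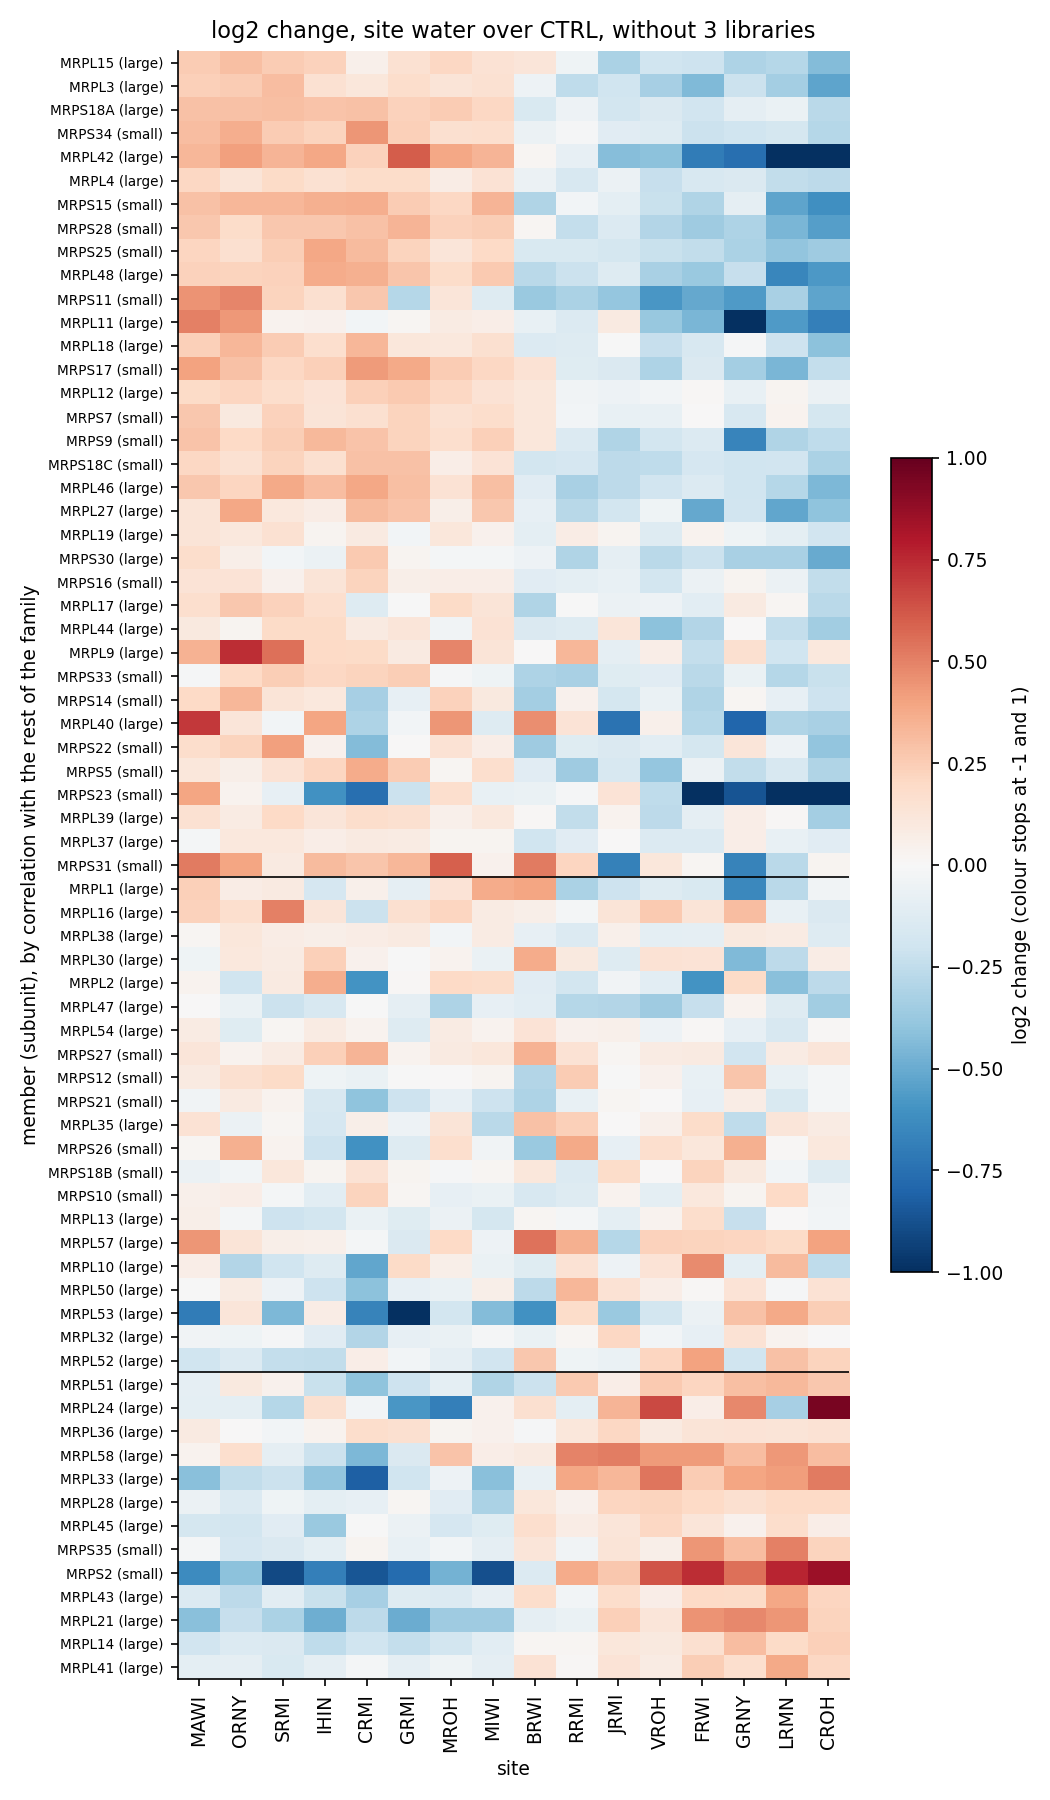
The log2 change over CTRL of each tested member (rows, ordered by correlation with the rest of the family, subunit in brackets) at each site (columns, ordered by the mean of the upper 35 members), without the 3 libraries; red is higher and blue lower, and lines set off the upper 35 and the lower 13 members. The upper members are mostly higher at the 8 sites from MAWI to MIWI and lower at the 8 from BRWI to CROH, and the lower 13 mostly show the reverse, as the choice of members by these means implies.

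Since the 35 and the 13 members were chosen by these site means, the spread of the sites in their means and its reversed order follow from the choice and are given as a description. The mean log2(CPM + 1) of the 35 members, taken relative to CTRL, was between 0.12 and 0.22 at MAWI, ORNY, SRMI, IHIN, CRMI, GRMI, MROH and MIWI, and between -0.31 and -0.09 at BRWI, RRMI, JRMI, VROH, FRWI, GRNY, LRMN and CROH. The 8 CTRL libraries lay between -0.08 and 0.08. The mean of the 13 members was 0.31 at CROH and 0.29 at LRMN, and -0.22 at CRMI and -0.21 at IHIN. Over all 69 members the mean log2 CPM relative to CTRL was lowest at CROH (-0.12) and highest at ORNY (0.10), and the sites followed each other with no such gap, with BRWI at -0.04, RRMI at -0.03 and IHIN at 0.04.

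The opposition among deviations within groups, pooled over all groups, is given as a description as well. The site libraries among them also gave the means by which the members were chosen. After the group means were taken away, the mean of the 35 and the mean of the 13 members had r = -0.72 over 68 libraries. Over the 8 CTRL libraries alone, whose means were not used in the choice, r was -0.47, a value that rests on few points. Over the 16 site means that had been used to choose the members, r was -0.98. GRNY 4 and LRMN 2 lay lowest for the 35 members, at -0.56 and -0.55, and among the highest for the 13, at 0.48 each, whereas GRNY 3 lay at -0.07 and LRMN 4 at -0.16 for the 35. GRNY libraries alone spanned from -0.56 to -0.07, beside -0.31 to 0.22 for the 16 site means. The deviation of the 35 had r = 0.12 with that of the log2 total count over the 68 libraries, and r = -0.28 over the site means. Transcript GC content, from the longest GENCODE 29 coding transcript of each member, had a median of 47.2% for the 35 and 55.5% for the 13, with r = -0.24 across all 69 members between GC content and the correlation with the family. No cause of this opposition was tested.

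**Figure D5:**
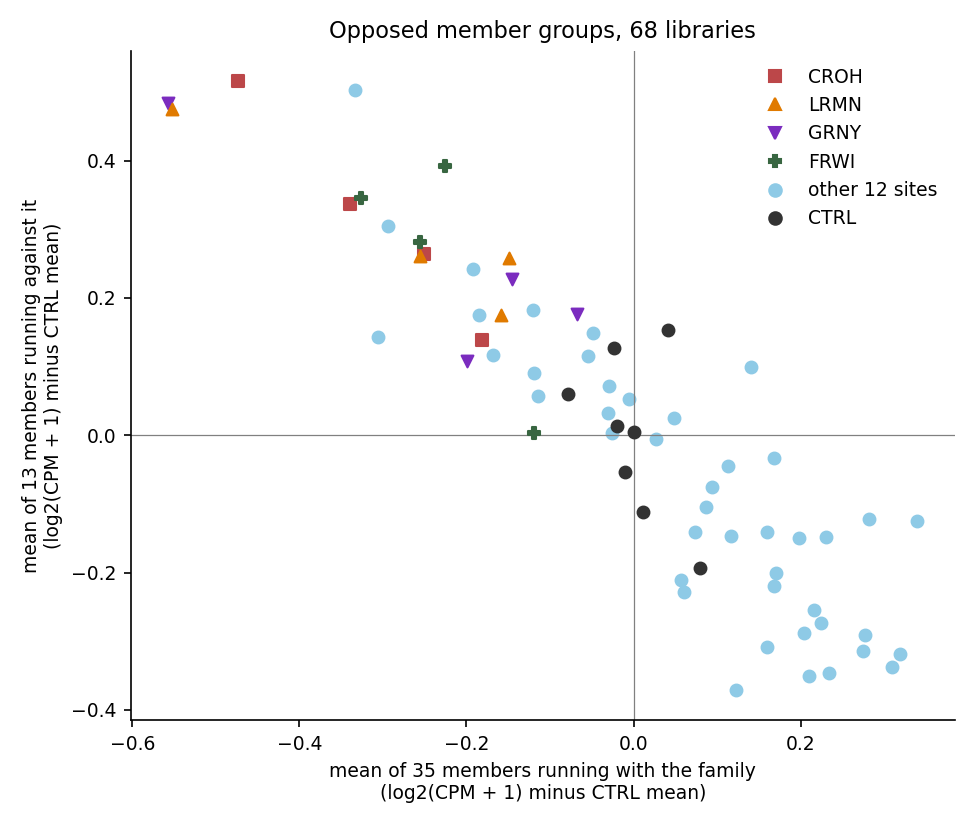
Mean log2(CPM + 1) relative to the CTRL mean of the 35 members that run with the family (horizontal axis) and of the 13 that run against it (vertical axis), 1 point per library, 68 libraries. Site libraries stretch along a falling line with GRNY 4 and LRMN 2 (-0.56 and -0.55) at the upper left, while CTRL libraries lie between -0.08 and 0.08 on the horizontal axis.

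Promoters are shown for members from both sides of this opposition. RefSeq promoters (GRCh38.p14, 250 bases before the start to 50 after) matched 68 of the 77 members by symbol. The motif CCGGAAG, searched on both strands, is the core that ETS factors such as GABP bind, and GABP is a known activator of genes for mitochondrial proteins. It was found in 29 of the 68 promoters (42.65%), beside 10.67% of all 27305 promoters of the same length. The 10-base core motif of the factor NRF1, searched in the same way, was found in 8 (11.76%), beside 6.28% of all. The first motif was in 12 of 33 promoters of the members that ran with the family in 5 of 12 of those that ran against it and in 11 of 17 of the remaining tested members. Among those that hold a match, the promoters of MRPL3 and MRPL48, from the first group, and of MRPL33 and MRPL43, from the second, are printed 5′ to 3′ with the CCGGAAG match, on either strand, in capitals.
MRPL3 (chr3:131502922-131503221, minus strand): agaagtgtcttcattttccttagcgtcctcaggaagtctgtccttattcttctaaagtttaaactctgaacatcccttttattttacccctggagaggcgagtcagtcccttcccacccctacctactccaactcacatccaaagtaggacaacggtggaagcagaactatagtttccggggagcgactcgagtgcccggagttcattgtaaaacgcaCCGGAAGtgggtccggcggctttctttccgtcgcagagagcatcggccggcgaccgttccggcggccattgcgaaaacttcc
MRPL48 (chr11:73787624-73787923, plus strand): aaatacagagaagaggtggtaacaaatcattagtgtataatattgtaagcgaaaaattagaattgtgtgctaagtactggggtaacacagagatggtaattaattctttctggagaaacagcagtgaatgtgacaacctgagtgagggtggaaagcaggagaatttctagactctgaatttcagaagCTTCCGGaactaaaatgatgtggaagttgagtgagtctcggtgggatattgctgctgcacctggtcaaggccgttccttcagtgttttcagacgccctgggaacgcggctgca
MRPL33 (chr2:27771469-27771768, plus strand): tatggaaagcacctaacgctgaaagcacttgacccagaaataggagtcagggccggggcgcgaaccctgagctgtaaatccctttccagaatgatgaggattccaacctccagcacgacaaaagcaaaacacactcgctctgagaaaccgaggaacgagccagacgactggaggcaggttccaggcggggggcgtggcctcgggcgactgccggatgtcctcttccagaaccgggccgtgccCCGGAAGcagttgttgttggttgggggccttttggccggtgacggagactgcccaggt
MRPL43 (chr10:100987448-100987747, minus strand): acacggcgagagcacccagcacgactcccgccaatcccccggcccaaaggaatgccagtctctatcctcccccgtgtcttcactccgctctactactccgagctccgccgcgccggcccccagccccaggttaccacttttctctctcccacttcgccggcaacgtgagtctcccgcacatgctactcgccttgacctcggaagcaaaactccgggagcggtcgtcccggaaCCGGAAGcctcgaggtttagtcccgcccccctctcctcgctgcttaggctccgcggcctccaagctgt
All 4 hold 1 match, and a match is a run of letters and not a measured site.

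Genes that build or feed the mitochondrial ribosome were read from lists beside the members. At the mean of sites 0 genes of any list were called in either fit: 5 ribosomal proteins with other symbols, 16 assembly factors, 16 translation factors, 10 mitochondrial aminoacyl-tRNA synthetases, 10 factors of mitochondrial RNA synthesis and processing, 36 subunits of complex I, 7 regulators of biogenesis and 9 mitochondrial stress genes. Their medians lay between -0.03 and 0.03. Between sites, with all libraries, 4 of 16 assembly factors, 4 of 16 translation factors, 3 of 10 synthetases, 3 of 10 factors of RNA synthesis and processing, 2 of 36 complex I subunits, 2 of 9 stress genes, 1 of 7 regulators of biogenesis (PPRC1) and 1 of 5 ribosomal proteins with other symbols (PTCD3) were called, beside the background of 29.8%. Counts without the 3 libraries were 8 of 16 assembly factors, 8 of 16 translation factors, 4 of 9 synthetases, 6 of 10 factors of RNA synthesis and processing, 9 of 36 complex I subunits, 6 of 9 stress genes, 4 of 7 regulators and 1 of 5 other ribosomal proteins, beside 49.8%.

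The synthetase AARS2, which charges mitochondrial tRNA with alanine, was lower at LRMN with all libraries (-0.71 ± 0.20, edgeR adjusted p = 0.0242). Without the 3 libraries it was also lower at CROH (-0.57 ± 0.16), GRNY (-0.52 ± 0.16) and JRMI (-0.65 ± 0.16) and higher at ORNY (0.55 ± 0.15). GFM2, a factor of ribosome recycling, was lower at CROH with all libraries (-0.58 ± 0.14, edgeR adjusted p = 0.0172). MTERF4, which works with a methyltransferase in ribosome assembly, was lower at LRMN (-0.60 ± 0.18, edgeR adjusted p = 0.0415).

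MRM3, which methylates the large ribosomal RNA, was higher at CRMI with all libraries (0.49 ± 0.13, edgeR adjusted p = 0.0299) and without the 3 (0.34 ± 0.10, edgeR adjusted p = 0.0336). Of 16 assembly factors, 3 were called higher at SRMI with all libraries, beside 1.14% of all features. They were DHX30 (0.48 ± 0.13), MRM3 (0.49 ± 0.13) and MTG2 (0.68 ± 0.17). Without the libraries SRMI 3, CRMI 1 and VROH 2 the count was 0, beside 1.27% of all features, and their values were 0.21 to 0.23. GABPB1, a subunit of GABP, was called only without the 3 libraries. It was higher at CRMI (0.55 ± 0.15), GRMI (0.55 ± 0.14) and MAWI (0.46 ± 0.14) and lower at GRNY (-0.60 ± 0.14) and LRMN (-0.43 ± 0.14). Other regulators of biogenesis were also called only without the 3 libraries. MYC was higher at CRMI (0.41 ± 0.07) and MAWI (0.27 ± 0.07), and PPARGC1A was lower at MAWI (-0.35 ± 0.10). A link between these regulators and the members was not tested. At LRMN without the 3 libraries 4 of 36 complex I subunits were called higher, beside 9.34% of all features. They were NDUFA1 (0.36 ± 0.09), NDUFA9 (0.30 ± 0.09), NDUFB4 (0.33 ± 0.12) and NDUFB8 (0.47 ± 0.12).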

How the data were processed

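Gene counts came from TempO-Seq libraries of HepG2 cells, one per dish. Estimated counts were deposited by the authors as 1 table of the whole series, made with Salmon on GRCh38, per the submitters' processing notes. The table is called normalized, but within each library a median of 93.3% of values under 20 were whole multiples (within 0.02) of a constant between 0.993 and 1.00, so values were rounded and fitted as counts. The table was held in part: 31012 complete rows, 12425 with counts, and its last row is incomplete and was left out. CPM are therefore relative to the part held, to its tested features with TMM factors for members and to all its counts for cell type markers.

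Columns were matched to samples by name. The MIWI columns and GRMI 1 were matched to their site alone, and library numbers are those of the columns. Counts were fitted with edgeR 4.0.16 (R 4.3.3), using TMM factors, filterByExpr with a minimum count of 10, 17 groups and 71 libraries (54 residual degrees of freedom), and the quasi-likelihood F test. P-values were adjusted by Benjamini and Hochberg's method over all 6947 features tested, or 6916 without VROH 2, CRMI 1 and SRMI 3, and called under 0.05. The comparisons were the mean of the 16 sites against CTRL, each site against CTRL, and all sites against each other. DESeq2 1.42.0 and other settings were alternatives.

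Members and lists were chosen with earlier results of these data known. Named members were those called at the mean of sites (or, with none called, the 3 largest values each way), the 10 with the smallest p between sites, up to 3 rises and 3 falls per site among called members with all site libraries on the called side of the CTRL mean, and 12 fixed members, of which MRPS36 was not tested; other called members are named where a count was small. Gene positions are those of GENCODE 29, and promoters those of RefSeq. The 8 CTRL libraries are shared by all site comparisons, so their values are not independent. Precision for low members is limited by counting.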

Additional observations from a re-analysis of the deposited data

Results flagged for a closer look

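Members were looked at for single libraries far from the others of their group, by Dixon's criterion. This was done in the summed CPM of each group but MIWI, which had only 3 libraries. It was also done in each member called at a site, there and in CTRL. Of 65 such groups 10 passed, and chance alone flags about 1 in 20. In the summed CPM, CRMI 1 (9174 CPM) lay far above and VROH 2 (489 CPM) far below the other libraries of their sites. Among single members, MRPS16 in CRMI 1 (146 CPM) and MRPL41 in FRWI 4 (257 CPM) lay high, and MRPL42 in LRMN 2 (19.1 CPM) lay low. In CTRL, MRPL33 in CTRL 6 (104 CPM) and MRPL41 in CTRL 7 (220 CPM) lay high, and MRPS15 in CTRL 5 (15.5 CPM), MRPS34 in CTRL 5 (88.9 CPM) and MRPS9 in CTRL 1 (155 CPM) lay low.

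Members whose level differed between the 16 sites by the F test over all libraries were flagged as well, with F values of 5.45 for MRPL33, 4.48 for MRPS2, 4.11 for MRPL3, 4.00 for MRPS33, 3.66 for MRPS15, 3.66 for MRPS18C, 3.44 for MRPL18, 3.30 for MRPL48, 2.98 for MRPL21 and 2.92 for MRPL27.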

How the results depend on the processing

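The count of 0 members at the mean of sites held under DESeq2, RLE size factors, no filter, the replicate block, without VROH 2, without the 3 libraries and without any 1 library. Without VROH 2, CRMI 1 and SRMI 3 the count between sites was 34 in place of 19, and counts at sites were 4 at CRMI in place of 2, 10 at CROH, 9 at LRMN, 2 at GRNY, 2 at MAWI and 1 at FRWI in place of 0. Without VROH 2 alone they were 7 at CRMI (beside 7.32% of all features), 2 at CROH (4.16%) and 3 at LRMN (8.64%). DESeq2 called 5 at CRMI (5.72%), 2 at CROH and 3 at LRMN, RLE size factors gave 2 at CROH (2.95%), and no filter on low counts gave 1 at CRMI (0.765%) and 1 at VROH (0.354%). With 1 site and CTRL fitted alone the counts were 4 at CRMI (3.27%), 18 at CROH (14.9%), 10 at LRMN (16.0%), 4 at MAWI (4.94%), 3 at IHIN (4.86%), 2 at ORNY (3.59%), 2 at RRMI (4.62%) and 1 at FRWI (4.08%). The cause of these shifts was not tested. Leaving out each of the 71 libraries in turn gave 16 to 26 members between sites, the 26 without VROH 2, beside 37.8% of all features. At the sites it gave 0 (without CRMI 1) to 7 (without VROH 2, beside 7.32%) at CRMI, 0 to 3 at CROH, 0 to 3 at LRMN, 0 to 1 at GRNY and 0 to 1 at SRMI. No call changed direction under these settings. Leaving out 1 further library from the fit without the 3, an alternative chosen after seeing the data, gave 0 to 12 members at CROH (0 without CROH 3), 3 to 11 at LRMN (3 without LRMN 2), 0 to 5 at CRMI, 0 to 4 at GRNY, 0 to 3 at FRWI and 0 to 2 at MAWI. Apart from VROH 2, the share of all features called in the fits with 1 library left out is not given. These ranges therefore do not tell members from other features. Deviations of same-numbered libraries had a median r of 0.02 over 480 pairs, with 31.0% over 0.1, and those of other-numbered libraries a median r of -0.003. Whether the numbers pair the samples cannot be told from these values. With the replicate block the count at CRMI was 0 in place of 2, beside 0.705% of all features in place of 3.74%. Members of about 1 CPM, such as MRPS23 and MRPL11, are limited by depth.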
